A study of Homo sapiens with 5 samples.

Results

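After ENO1-IT1 knockdown, 319 positions in HCT116 cells carried a summit of H3K27ac and a summit of KAT7 on top of each other where neither mark had been listed in control cells. They were 319 of the 31839 H3K27ac summits listed after knockdown, a share of 1.0%, out of 209263 summits in all 5 lists of the study. A position was taken when a knockdown KAT7 summit lay no more than 50 bp from a knockdown H3K27ac summit and both control lists were empty for 500 bp on either side. The sites were thus chosen by the presence and absence of summits in these same lists, and that pattern itself is no result. Scores and distances are given as a description of these libraries, without a test.

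HCT116 is a human colorectal cancer cell line. The cells, at passage 16 to 19, received either an siRNA targeting ENO1-IT1 or a control siRNA for 48 h. ENO1-IT1 is a long noncoding RNA that takes its name from an intron of the enolase gene ENO1. Each siRNA gave 1 library with an antibody against H3 acetylated at lysine 27 (H3K27ac) and 1 with an antibody against KAT7, and the last library was input DNA with no antibody, whose siRNA is not stated. With 1 library per group and no replicate, nothing here could be set against replicate error. The groups rest on the sample titles, the lists hold no transcript level with which to check the knockdown, and whether the line is 1 clone is not stated.

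H3K27ac is a mark of active promoters and active enhancers, placed mainly by the acetyltransferases CBP and EP300. KAT7, also called HBO1, is a MYST-family acetyltransferase that works in complexes with BRPF or JADE scaffold proteins. Its known substrates are other lysines, on H3 and on the tail of H4, and it is also known from the licensing of replication origins. Acetylated chromatin usually shows several summits over a few kilobases, on either side of the nucleosome-depleted DNA where factors bind. A summit is the point of highest read pile-up in a peak, and its score here is a -log10 p or q value of the peak caller, which grows with sequencing depth. Scores were therefore ranked within a list, and scores of different lists are not on a common scale. Some alternatives nevertheless applied the same score minimum to lists of both siRNAs.

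The lists the sites were drawn from were unequal in length. After knockdown there were 31839 H3K27ac and 24611 KAT7 summits, against 29429 H3K27ac and 122439 KAT7 summits in control cells, and 945 in input. Read depth is unknown, because the lists hold no counts. The control KAT7 list is the longest, and it alone kept 553 positions with both marks out of the knockdown set, where the knockdown KAT7 list alone kept 226 out of the control set. Of all knockdown H3K27ac summits, 31.8% had no control summit of either mark within 500 bp, 35.7% had no control H3K27ac summit, and 8.61% had knockdown KAT7 within 50 bp. Of all knockdown KAT7 summits, 67.8% had no control KAT7 summit within 500 bp.

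Knockdown H3K27ac and KAT7 summits met within 50 bp at 2741 positions, and most of these were listed in control cells too. Both marks had a control summit within 500 bp at 1658 of them (60.5%, exact 95% interval 58.6 to 62.3%). Control KAT7 alone was listed at 553 (20.2%, 18.7 to 21.7%) and control H3K27ac alone at 211 (7.70%, 6.73 to 8.76%). The 319 sites with neither made up the remaining 11.6% (10.5 to 12.9%). Intervals cover counting error only. Median knockdown KAT7 scores in these 4 groups were 16.9 at the 319 sites, 26.6 with control KAT7 alone, 15.9 with control H3K27ac alone and 56.2 with both.

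The same rule with the siRNAs exchanged found 67 sites with both marks in control cells only, 0.228% of the 29429 control H3K27ac summits. They made up 3.19% (2.48 to 4.03%) of the 2102 positions where the marks met in control cells. The ratio of knockdown-only to control-only sites was 4.76 (3.65 to 6.29, counting error only), and it ran from 2.28 to 43.9 over the alternative distances, score minimums and list lengths tried. With scores of at least 10 in both lists of the condition it was 3.50, and its interval of 0.666 to 34.5 included 1.

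The sites ranked high for KAT7 and low for H3K27ac. Their KAT7 scores ran from 1.32 to 76.1 with a median of 16.9, which stood at the 78.5th percentile of the knockdown KAT7 list, whose own median was 7.67. Their H3K27ac scores ran from 1.49 to 31.9 with a median of 5.42, at the 32.7th percentile of the knockdown H3K27ac list, whose median was 8.02. A low H3K27ac rank was not particular to them. The 9497 summits listed after knockdown only with no KAT7 within 500 bp had a lower median of 4.45, at the 24.6th percentile. The KAT7 percentile was the higher of the pair at 278 of the 319 sites (87.1%, 83.0 to 90.6%). KAT7 stood at or above the 75th percentile of its list at 177 sites (55.5%), and H3K27ac at or above the 75th of its own at 5 (1.57%). KAT7 stood at or above the 90th percentile of its list, with H3K27ac below the 50th of its own, at 51 sites (16.0%, 12.1 to 20.5%).

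Positions found within 50 bp in all 4 immunoprecipitated lists, 1380 of the knockdown H3K27ac summits, ranked higher for both marks. Their median KAT7 score was 60.6, at the 96.4th percentile of its list, and their median H3K27ac score 15.2, at the 74.1st percentile of its own. The KAT7 percentile was the higher at 1262 of them (91.4%, 89.8 to 92.9%). Across sites the scores of the marks went together less closely at the 319 sites, with a Spearman rho of 0.36, than at the 1380 positions, with a rho of 0.71. These are descriptions across positions that share 2 libraries, the difference between them was not tested, and the scores of the 319 sites span a narrower range. Scores were also tied. The 319 sites held 88 different H3K27ac scores and 141 different KAT7 scores, which appear as columns and rows of points in the plot of scores.

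**Figure D1:**
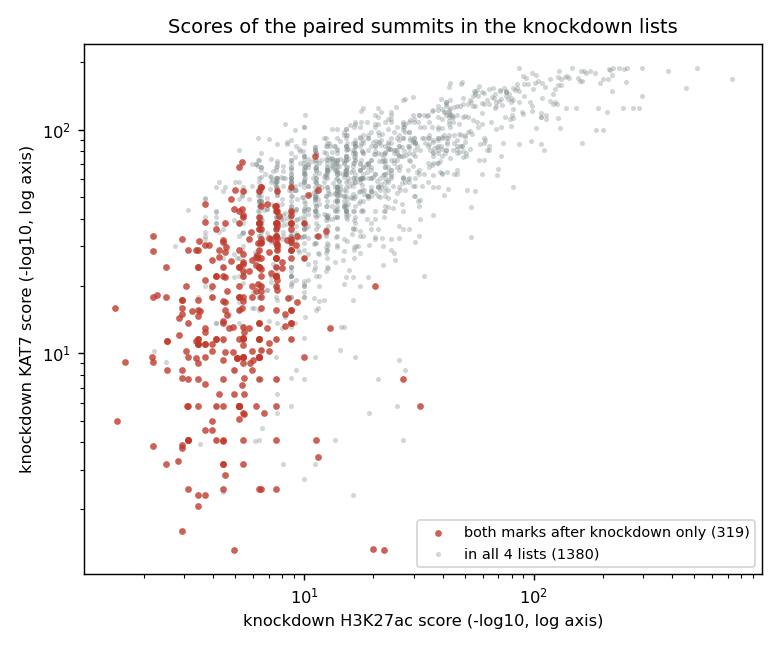
Knockdown KAT7 score against knockdown H3K27ac score, both as -log10 values on log axes, for the 319 sites with both marks after knockdown only (red) and the 1380 positions within 50 bp in all 4 immunoprecipitated lists (grey); each point is 1 position. The red points lie at H3K27ac scores of 1.49 to 31.9, around a median of 5.42, and reach KAT7 scores of 76.1.

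The site with the highest KAT7 score lay on chromosome 3 at 165443313 (hg19, as are all positions here). Its KAT7 score after knockdown was 76.1 and its H3K27ac score 11.1, with the summits 1 bp apart. In control cells the nearest KAT7 summit was 6114 bp away (score 2.68) and the nearest H3K27ac summit 149332 bp away. Another site lay 652297 bp from it on the same chromosome, at 164791016, with scores of 53.5 for KAT7 and 11.5 for H3K27ac and 2 bp between them. There the nearest control KAT7 summit was 3426 bp and the nearest control H3K27ac summit 123698 bp away. Both were thus far from any acetylated position of the control list.

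The next KAT7 scores belonged to sites with weaker acetylation. On chromosome 7 at 102060321 KAT7 scored 71.3 and H3K27ac 5.36 after knockdown, with control KAT7 61335 bp and control H3K27ac 23050 bp away. On chromosome 2 at 98745741 the scores were 68.3 and 5.21, with the nearest control KAT7 summit at 6043 bp and the nearest control H3K27ac summit at 114640 bp. A KAT7 score of 55.5 was shared by 3 sites, on chromosome X at 9284721 and 901356 and on chromosome 15 at 37403552, with H3K27ac scores of 8.74, 6.49 and 6.49. The site at 901356 had a further knockdown KAT7 summit 423 bp from its own KAT7 summit. The remaining sites of the 10 highest were 127762908 on chromosome 8, 91726230 on chromosome 13 and 49246082 on chromosome 16. They had KAT7 scores of 53.7, 53.0 and 53.0 and H3K27ac scores of 5.01, 7.59 and 6.33. A site on chromosome X at 54754378 shared the KAT7 score of 53.0.

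These 10 sites had no other knockdown H3K27ac summit within 5 kb. Their nearest one lay 9716 to 240700 bp away, with a median of 119246 bp. The nearest control H3K27ac summit lay 10488 to 330715 bp away. Control KAT7, the longer list, was closer at the median, at 6078.5 bp against 119169 bp for control H3K27ac. It ranged from 1491 to 61335 bp, and at the chromosome 7 site it was farther than control H3K27ac. At the 10 sites the marks were 1 to 24 bp apart.

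The 5 sites with the highest H3K27ac scores lay beside acetylated positions of the control list. The highest was on chromosome 9 at 132369733, with an H3K27ac score of 31.9, a KAT7 score of 5.83 and a distance of 33 bp between the marks. A control H3K27ac summit was listed 1359 bp away with a score of 3.96. On chromosome 11 at 3013401 the scores after knockdown were 26.9 for H3K27ac and 7.67 for KAT7, and a control H3K27ac summit with a score of 11.96 lay 550 bp away, just past the distance that was kept clear. On chromosome 1 at 27854426 H3K27ac scored 22.3 and KAT7 1.32, with control H3K27ac listed 565 bp away at a score of 20.7. Acetylation was thus listed in both conditions at these stretches, with summits at different places.

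The rest of these 5 sites were similar. On chromosome 2 at 230932249 the H3K27ac score was 20.3 and the KAT7 score 19.9, and control H3K27ac was listed 913 bp away with a score of 13.2. On chromosome 12 at 106641523 the scores were 19.9 and 1.33, and control H3K27ac was listed 1142 bp away with a score of 10.95. All 5 of these sites had control H3K27ac within 2 kb, whereas this held for 25 of the 319 (7.84%, 5.14 to 11.4%).

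Among the next 5 by H3K27ac score, 1 lay beside control acetylation. That site, on chromosome 6 at 157007660, scored 12.4 for H3K27ac and 35.3 for KAT7 and had control H3K27ac at 600 bp and control KAT7 at 945 bp. For site 156935138 on chromosome 4 (12.9 for H3K27ac and 13.0 for KAT7) the nearest control H3K27ac summit was 60544 bp away. For site 54546561 on chromosome 12 (11.5 and 33.3) it was 35967 bp away, and for site 239779016 on chromosome 2 (11.5 and 3.43) 16939 bp. The last of the 5 was the chromosome 3 site at 164791016. In all, 13 of the 319 sites reached an H3K27ac score of 10, a share of 4.08% (2.19 to 6.87%), and 6 of the 13 had control H3K27ac within 2 kb.

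**Figure D2:**
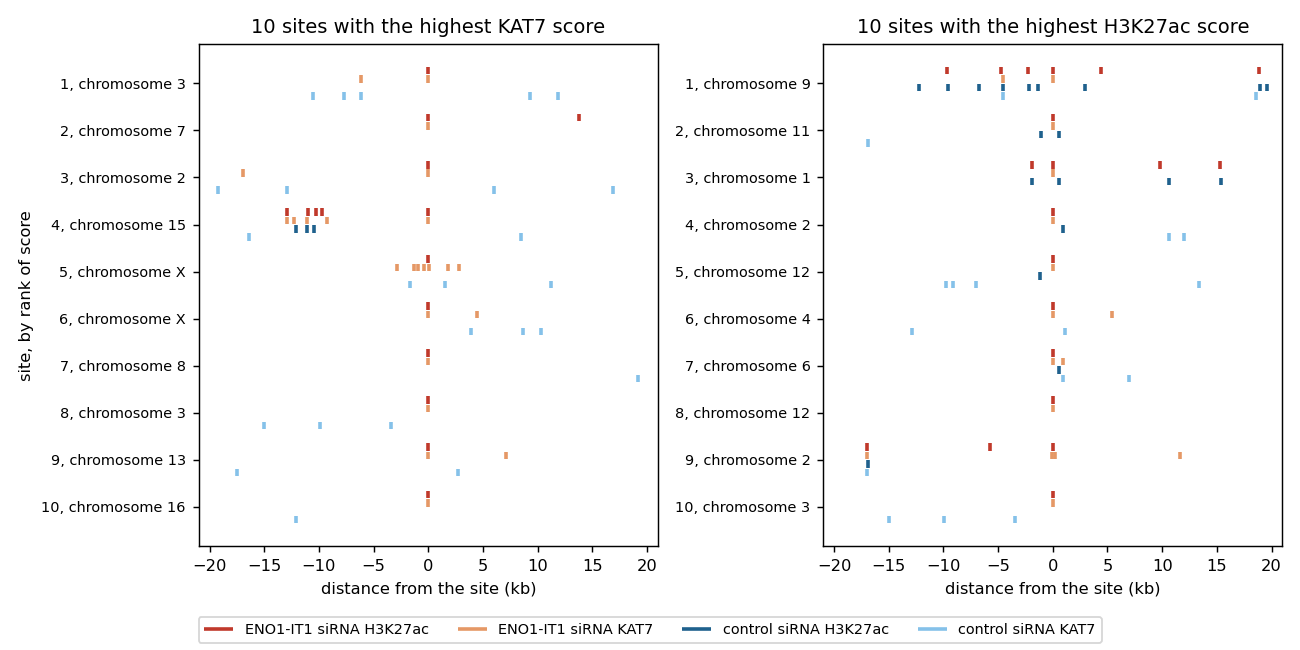
Summits of the 4 immunoprecipitated lists within 20 kb of the 10 sites with the highest KAT7 score (left) and the 10 with the highest H3K27ac score (right); the x axis is the distance from the site in kb, each row is 1 site and each tick 1 summit, coloured by list. On the left no control H3K27ac tick stands within 10 kb of a site, whereas on the right the first 5 rows have one at 550 to 1359 bp.

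The rule admitted only summits at most 50 bp apart, so closeness of the marks is itself no result. With 250 bp allowed there were 536 sites in place of 319. Within the 50 bp, short distances were the more common. The median distance between the summits was 8 bp, and 191 of the 319 sites (59.9%, 54.3 to 65.3%) had them at most 10 bp apart, well inside the 50 bp allowed. KAT7 was at the higher coordinate at 145 sites and at the lower at 160. At the 1380 positions of all 4 lists the median distance was 7 bp and 67.0% (64.4 to 69.4%) were at most 10 bp apart. At the 67 control-only sites it was 15 bp and 35.8% (24.5 to 48.5%).

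KAT7 scores were lower at the sites with the widest spacing. The median KAT7 score was 18.4 at the 116 sites with summits 0 to 5 bp apart, 19.9 at the 75 with 6 to 10 bp, 17.6 at the 84 with 11 to 25 bp and 8.02 at the 44 with 26 to 50 bp. The H3K27ac medians of these groups were 5.47, 5.76, 5.39 and 4.40. Looked at from the score, the median distance was 4 bp at the 12 sites with KAT7 of at least 50 and 11 bp at the 35 sites with KAT7 under 5.

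**Figure D3:**
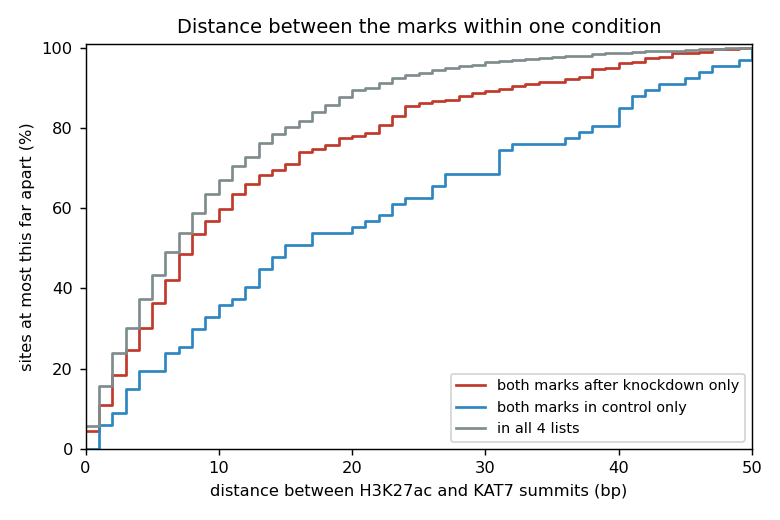
Cumulative share of sites, in percent, by distance in bp between the H3K27ac and KAT7 summits of one condition, for both marks after knockdown only (red, 319), both marks in control only (blue, 67) and positions in all 4 lists (grey, 1380). At 10 bp the red line stands at 59.9%, the blue at 35.8% and the grey at 67.0%.

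The 319 sites stood mostly alone in the acetylation map. The next H3K27ac summit of the knockdown list was 35087 bp away at the median. Over the whole knockdown H3K27ac list the median was 2712 bp, and it was 1926 bp for the 9497 summits listed after knockdown only with no KAT7 within 500 bp. A further knockdown H3K27ac summit was found within 5 kb at 51 of the 319 sites (16.0%, 12.1 to 20.5%), against 65.1% (64.1 to 66.0%) of those 9497 summits and 57.0% (56.4 to 57.5%) of the whole list. Positions in all 4 lists were also isolated, with a median of 55512 bp and 9.42% (7.93 to 11.1%) within 5 kb. At the 67 control-only sites the median to the next control H3K27ac summit was 1209 bp, and 45 of them (67.2%, 54.6 to 78.2%) had one within 5 kb.

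Control acetylation was likewise distant. The nearest control H3K27ac summit lay 519 to 2884953 bp from the 319 sites, with a median of 42225 bp, against 1858 bp for the 9497 knockdown-only summits without KAT7. No control H3K27ac summit lay within 50 kb of 142 sites (44.5%, 39.0 to 50.2%), against 12.05% (11.4 to 12.7%) of the 9497. Control KAT7 was listed within 5 kb at 102 of the 319 sites (32.0%, 26.9 to 37.4%) and at 31.5% (30.6 to 32.4%) of the 9497. The control KAT7 summits that near had a median score of 2.68, the same as the median of their list. A control summit of either mark lay within 5 kb of 126 sites (39.5%, 34.1 to 45.1%), against 73.3% (72.4 to 74.1%) of the 9497.

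**Figure D4:**
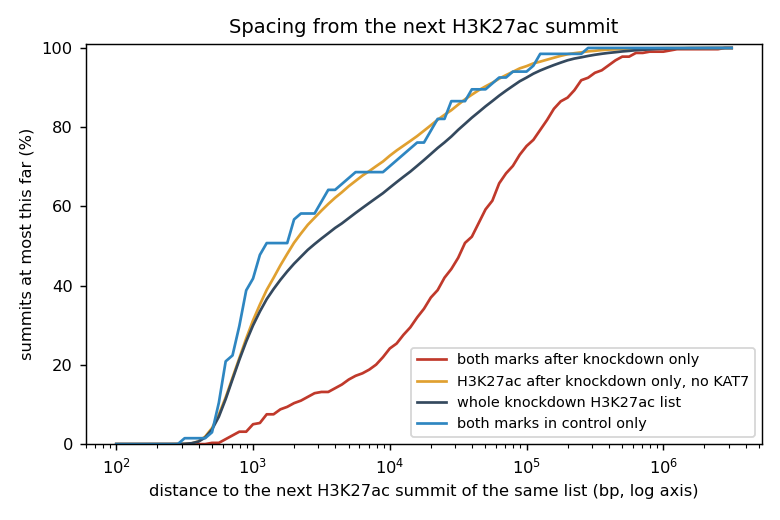
Cumulative share of summits, in percent, by distance in bp (log axis) to the next H3K27ac summit of the same list, for both marks after knockdown only (red, 319), H3K27ac after knockdown only with no KAT7 (yellow, 9497), the whole knockdown H3K27ac list (dark, 31839) and both marks in control only (blue, 67, measured in the control list). At 5 kb the red line stands at 16.0% and the others at 65.1%, 57.0% and 67.2%.

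Counting every mark, 153 sites (48.0%, 42.4 to 53.6%) had no other summit of any of the 4 lists within 5 kb, and 33 (10.3%) none within 20 kb. These shares were not counted for other summits, and the rule itself kept control summits 500 bp away. Whether they are unusual is therefore not known. KAT7 spacing was nearer to that of its list. The next knockdown KAT7 summit lay within 5 kb at 66 sites (20.7%, 16.4 to 25.6%), against 15.3% (14.8 to 15.7%) of the whole knockdown KAT7 list.

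Within the 319, sites with higher KAT7 scores tended to be farther from other acetylation, though not evenly. The median distance to the next knockdown H3K27ac summit was 13901 bp at the 35 sites with a KAT7 score under 5, and 12 of them had one within 5 kb. It was 20612 bp at the 56 sites scoring 5 to 10 (9 within 5 kb) and 29061 bp at the 95 scoring 10 to 20 (23 within 5 kb). At scores of 20 to 30 it was 57381.5 bp over 58 sites (6 within 5 kb), above the 45388 bp over the 63 sites scoring 30 to 50 (1 within 5 kb). At the 12 sites scoring at least 50 it was 101768 bp, with 0 within 5 kb. Divided by distance from control acetylation, the 25 sites within 2 kb of a control H3K27ac summit had a median KAT7 score of 10.2. The median was 11.6 at the 89 sites 2 to 20 kb away, 18.4 at the 116 sites 20 to 100 kb away and 24.4 at the 89 sites farther off. The H3K27ac medians of these groups were 5.94, 4.93, 5.36 and 6.33.

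The 5 sites farthest from any control summit were 161089932 on chromosome 6, 143209063 on chromosome 8, 32426151 on chromosome 17, and 58987132 and 33950192 on chromosome 3. Their nearest control summit of either mark was 42909 to 91809 bp away. The chromosome 6 site scored 26.6 for KAT7 and 8.74 for H3K27ac, and the chromosome 17 site 38.3 and 9.93. The chromosome 8 site scored 26.2 and 5.94. On chromosome 3 the scores were 23.4 and 5.76 at the first position and 19.9 and 3.96 at the other.

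How often the marks met after knockdown depended on both scores. When the knockdown H3K27ac list was divided by score into 5 classes of similar size, with tied scores kept together (6116 to 6745 summits each), KAT7 lay within 50 bp of 3.63% (3.11 to 4.20%) of the lowest-scored summits that had no control H3K27ac. The share was 9.36% (8.39 to 10.4%), 17.7% (15.9 to 19.5%) and 9.02% (7.06 to 11.3%) in the following classes and 1.52% (0.788 to 2.64%) in the highest. Summits with control H3K27ac within 500 bp had shares of 3.10%, 6.82%, 9.20%, 9.33% and 12.2% in the same order. In the middle class, with scores of 6.37 to 10.0, the share was therefore higher without control H3K27ac, and in the highest class it was lower. All these shares also count positions with control KAT7 within 500 bp. With those no longer counted as having KAT7, the shares without control H3K27ac were 1.90%, 3.88%, 4.95%, 1.08% and 0.634%. With control H3K27ac they were 0.899%, 2.11%, 1.40%, 0.895% and 0.361%. Summits with control KAT7 stayed in the class totals, so these shares are lower than shares of summits clear of control KAT7. For that reason they cannot be compared directly between summits with and without control H3K27ac. Of the 319 sites, 90, 129, 87, 8 and 5 fell in these classes.

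Seen from KAT7, 15646 knockdown KAT7 summits had no control summit of either mark within 500 bp, and 319 of them (2.04%, 1.82 to 2.27%) had knockdown H3K27ac within 50 bp. Where control KAT7 was listed within 500 bp the share was 27.9% of 7925. Among summits clear of the control lists it was 0.713% (0.539 to 0.925%) at KAT7 scores of 5 to 10, 7.83% (5.997 to 10.0%) at 20 to 30, 18.8% (14.8 to 23.4%) at 30 to 50 and 31.6% (17.5 to 48.7%) of the 38 scoring at least 50. With control KAT7 the shares at those scores were 4.97%, 31.8%, 56.4% and 88.0%. The 15646 were also kept clear of control H3K27ac and the 7925 were not, so part of this gap is given by the rule. Over the 4950 summits with control KAT7 but no control H3K27ac within 500 bp, a group added after the values were seen, the share was 11.2% (10.3 to 12.1%). At the same scores it was 2.72% (2.06 to 3.52%), 22.5% (18.8 to 26.6%), 40.1% (35.4 to 44.9%) and 63.7% (54.1 to 72.6%), and at scores under 5 it was 1.20% (0.482 to 2.45%), against 1.02% (0.714 to 1.42%) clear of both. The 14992 KAT7 summits clear of the control lists and without knockdown H3K27ac within 500 bp had a median KAT7 score of 7.29, against 16.9 at the 319 sites.

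**Figure D5:**
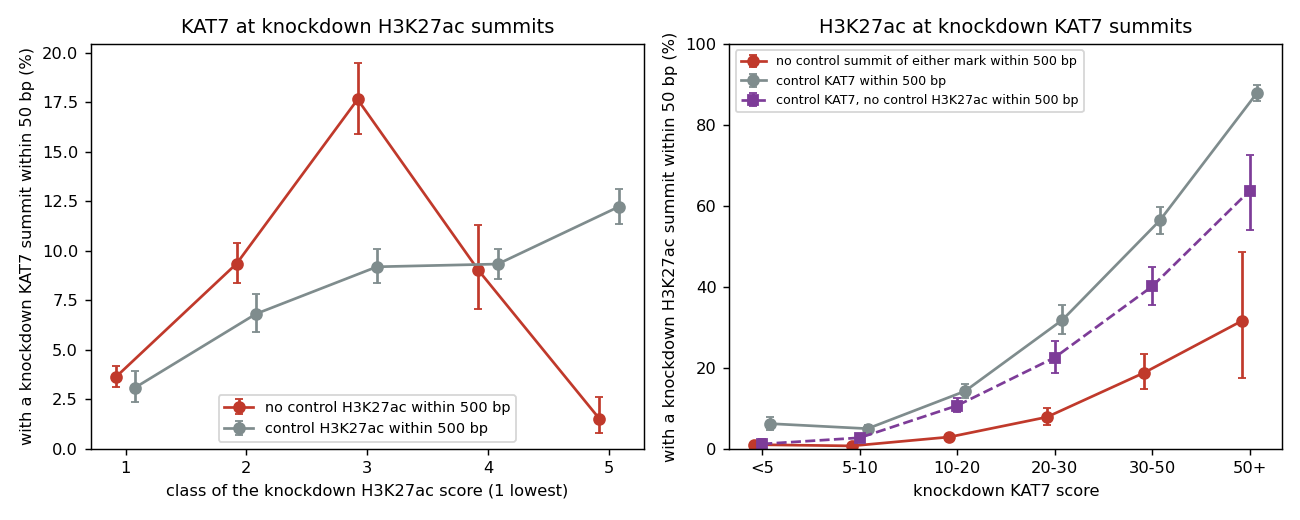
Left, share of knockdown H3K27ac summits with knockdown KAT7 within 50 bp, in percent, in 5 classes of similar size by H3K27ac score, without (red) and with (grey) control H3K27ac within 500 bp. Right, share of knockdown KAT7 summits with knockdown H3K27ac within 50 bp, by KAT7 score, without any control summit (red), with control KAT7 (grey) and with control KAT7 but no control H3K27ac (purple, dashed) within 500 bp; bars are exact 95% intervals for counting error. The red line on the left peaks at 17.7% in the middle class, and on the right, for scores of at least 50, the red, purple and grey points stand at 31.6%, 63.7% and 88.0%; the grey group alone could hold control H3K27ac.

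The sites were scattered over the genome. They lay on each of chromosomes 1 to 22 and X, from 4 on chromosome 21 to 34 on chromosome 1. Per 1000 knockdown KAT7 summits there were 13.0 sites in all, with 20.4 (10.9 to 34.7) on chromosome 20, the highest of these chromosomes, and 8.13 (3.72 to 15.4) on chromosome 11, the lowest of them. Both intervals include the overall value. Per 1000 knockdown H3K27ac summits the overall value was 10.0, with 16.1 (6.48 to 32.8) on chromosome 18, the highest of the same chromosomes, and 5.74 (2.63 to 10.9) on chromosome 11, the lowest of them, and both intervals again include it.

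Sites seldom lay near each other. No group of 3 or more was found with gaps of up to 50 kb, and 6 pairs held 12 sites (3.76%, 1.96 to 6.48%). On chromosome 12 the pair at 54402642 and 54407820 had KAT7 scores of 35.8 and 22.1 and H3K27ac scores of 4.10 and 4.13. Common map knowledge for hg19 puts this pair in the HOXC cluster of homeobox genes, the transcription factors that set position along the body axis. The nearest control summit lay 2623 bp from the first and 1694 bp from the other, in both cases of KAT7. On chromosome 1 the pair at 228766168 (KAT7 27.5, H3K27ac 6.20) and 228781838 (7.76 and 5.46) lay in the stretch where the same knowledge places the tandem 5S ribosomal RNA genes. Control H3K27ac was listed 2239 and 904 bp away.

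The other 4 pairs lay on chromosomes 14, 1, 15 and 8. On chromosome 14 the sites at 106044662 and 106056799 had KAT7 scores of 2.33 and 2.47 and H3K27ac scores of 3.69 and 4.40, within what is generally known as the immunoglobulin heavy chain locus. On chromosome 1 the sites at 5807760 and 5809875 were 2115 bp apart, with KAT7 scores of 2.47 and 15.0. On chromosome 15 the site at 37403552, with scores of 55.5 for KAT7 and 6.49 for H3K27ac, had a neighbour at 37390596 with scores of 11.3 and 2.51, and on chromosome 8 the sites at 22566591 and 22604152 scored 15.4 and 23.4 for KAT7. No hg19 annotation was used, so no site was assigned to a gene, promoter or intron.

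Input DNA had a summit near 2 of the 319 sites (0.627%, 0.0760 to 2.25%), against 43 of the 31839 knockdown H3K27ac summits (0.135%, 0.0978 to 0.182%). The site on chromosome 1 at 121485204, a position generally known to be close to the centromere, lay 37 bp from an input summit with a score of 117. Its own scores were low, at 2.92 for H3K27ac and 1.60 for KAT7. The site on chromosome 17 at 79223225 lay 2 bp from an input summit with a score of 15.6, with scores of 3.42 and 2.06. Both were among the 35 sites with KAT7 under 5, and without them 317 sites were left.

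Just inside 50 bp were the sites 2014572 on chromosome X, 27348293 on chromosome 8 and 244598999 on chromosome 1, with marks 49, 47 and 47 bp apart and KAT7 scores of 2.47, 17.8 and 11.6. Just outside were 68878439 on chromosome 11, 47036029 on chromosome X and 79285766 on chromosome 15, with marks 51, 53 and 53 bp apart and KAT7 scores of 22.9, 15.7 and 5.83. The sites nearest to a control summit were 27348293 on chromosome 8 and both 72354711 and 3013401 on chromosome 11, at 519, 527 and 550 bp. Excluded at 497, 487 and 452 bp were the positions 41466026 on chromosome 19, 136429534 on chromosome 9 and 57742147 on chromosome 14. The chromosome 9 position had knockdown scores of 214 for H3K27ac and 99.9 for KAT7, and control H3K27ac with a score of 224 was listed 487 bp from it.

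The 67 control-only sites showed other values in several of these measures. Their median control KAT7 score was 2.68, equal to the median of the control KAT7 list. Many summits of that list were tied at this score, so its percentile, the share scoring lower, was only 29.0. The 50th percentile of that list was reached by 20 of the 67 (29.9%, 19.3 to 42.3%), with sites tied at the median counted as below it. In the knockdown KAT7 list it was reached by 256 of the 319 (80.3%, 75.5 to 84.5%). Because of the ties these shares cannot be compared directly. The median H3K27ac score of the 67 sites, 5.03, stood at the 33.5th percentile of its list, close to the 32.7th of the 319 sites. Their highest H3K27ac score was 191, on chromosome 1 at 8937810, where KAT7 scored 43.2. The nearest of the 319 sites lay 1918672 bp from that position, with scores of 3.08 for H3K27ac and 5.83 for KAT7. The control KAT7 list is the longer and its median score the lower, so the percentiles describe each list and show no change between them.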

How the data were processed

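The submitters' processing notes name Bowtie, MACS2 and the hg19 genome. The notes used here state neither versions nor calling options, nor which control MACS2 was given. The peak names carry a duplicate-removal tag, and they begin with the letters KO for both siRNAs. Each deposited list belongs to 1 library and gives 1 summit per peak, with its position and a score. The authors' score is read, from its range and the layout of MACS2 summit files, as a -log10 of a p or q value; which of them is not stated.

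Positions are hg19, counted from 1. Distances to the nearest summit, shares with exact Clopper-Pearson 95% intervals and medians were computed in Python 3.11.15 with SciPy 1.17.1, pandas 2.3.3 and numpy 2.4.6. Figures were drawn with matplotlib 3.10.9. The distance code was tested on simulated lists. A percentile is the share of a list with a lower score. Regions named are the 10 highest scores of each mark, groups within 50 kb, the 5 farthest from control summits, positions beside each limit of the rule and the highest control-only site. Positions near input were added after their values were seen. The members, lists and comparisons were chosen with earlier results of these data known. Alternatives changed the distances, score minimums, list lengths and input. Genes and sequences at the sites were not analysed here, since no hg19 genome or annotation was used.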

Additional observations from a re-analysis of the deposited data

How the results depend on the processing

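Of 72 alternative values, 39 stayed within 1.5 times the reported count or within the reported 95% interval, 33 moved beyond it, and none turned the ratio of knockdown-only to control-only sites below 1. Keeping only chromosomes 1 to 22 and X, or counting sites within 500 bp once, changed no value, since no site was affected. Shares within other distances, such as 2 and 20 kb, are other quantities. The tally therefore does not measure how stable the results are. With KAT7 at most 25, 100 and 250 bp away there were 275, 379 and 536 knockdown-only and 42, 106 and 235 control-only sites, with ratios of 6.55, 3.58 and 2.28. With the lists of the other siRNA empty for 1000 and 5000 bp there were 291 and 193 against 37 and 18 sites, with ratios of 7.86 and 10.7. A score of at least 3 in both lists of the condition left 278 against 15 sites (ratio 18.5), and of at least 10 left 7 against 2 (ratio 3.50, 0.666 to 34.5), too few to show a direction. When summits under 3 were dropped from the lists of the other siRNA there were 573 against 77 sites (ratio 7.44). With all 4 lists at the length of the shortest there were 483 against 11 sites (ratio 43.9), and 223 of the 319 reported sites were among the 483. By construction, fewer control KAT7 summits enter every comparison with a score minimum or with equal list lengths. Minimums in both lists of the condition bear in this way on the control-only count. The control KAT7 list has a median score of 2.68, against 7.67 for the knockdown KAT7 list. The median KAT7 score was 11.4 with KAT7 at most 250 bp away, and the share of sites with another knockdown H3K27ac summit within 5 kb was then 21.8%. That share was 10.3% within 2 kb and 37.3% within 20 kb. The share with a control summit was 33.7% when 1000 bp were kept clear, 19.1% within 2 kb and 83.7% within 20 kb. The share with another site within 50 kb was 1.37% when 1000 bp were kept clear, and it was 1.25% within 10 kb and 6.58% within 200 kb. The share of knockdown KAT7 summits with control KAT7 that had H3K27ac was 11.2%, against 27.9% as reported, when control H3K27ac was kept away as well, an alternative chosen after seeing the data. No paired analysis was possible because each group held 1 library, and for the same reason no library could be left out. Depth is unknown, so an empty stretch of a list does not show that a mark was absent.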
